A study of Mus musculus with 12 samples.

Results

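The comparison set 3 microarrays of C2C12 cells labelled as transfected with siRNA, titled MEG3 knockdown, against the 6 arrays labelled pcDNA3.1 or pcDNA3.1-MEG3. The plasmid side was taken as the mean of its 2 group means. These are 9 of the 12 arrays of the series, since the 3 arrays of the negative control were left out. C2C12 is a mouse myoblast line that divides in rich medium and forms contractile myotubes when serum is withdrawn. The cells were grown in high-glucose medium with fetal bovine serum, and RNA was taken 72 h after transfection. pcDNA3.1 is an expression plasmid, and pcDNA3.1-MEG3 is titled as overexpression of MEG3, a long noncoding RNA of the imprinted Dlk1-Dio3 cluster. The labels give neither the sequence or dose of the siRNA, nor a control siRNA for this arm, nor the species and extent of the MEG3 insert. All 3 siRNA arrays lay on a slide of their own, and both plasmid groups shared another, so the transfected nucleic acid, its target and the slide cannot be told apart.

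Replicates 1 and 3 of each group were scans of the same slide position in different scan sessions. Their spot-by-spot deviations correlated at 0.970 (pcDNA3.1), 0.946 (pcDNA3.1-MEG3) and 0.981 (siRNA), and no other pair of arrays exceeded 0.531. They were averaged, which left 2 samples in each of 3 groups, here called replicate 1/3 and replicate 2. Where pairs of values are given below, they stand in that order. The spot deviations of replicates 1 and 2 correlated at 0.485 (pcDNA3.1) and 0.510 (pcDNA3.1-MEG3), but at -0.275 in siRNA. Those of siRNA replicate 2 correlated at 0.413 to 0.504 with the negative control arrays, and the cause was not tested. In each of the 3 groups the replicate 1 and 2 arrays also differed by less than the noise between spots of one probe. The labels do not say that they came from separate cultures. The p-values therefore rest on a spread between samples that could be wholly technical.

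A level here is the log2 signal of a gene's brightest probe minus the 75th percentile of its array, so a level of 0 is the signal of that percentile. Levels are compared between samples and not between genes, except where the signals of cell type markers are summed below. Rises and falls are relative to the plasmid groups, so a fall on the siRNA arrays can also be a rise in both plasmid groups. The reverse holds for rises, and which side moved was not tested. A fall in a bulk sample can mean fewer cells with the transcript or less of it per cell, and these cannot be told apart. A gene was called when its adjusted p was under 0.05 in a moderated test (limma) after Benjamini-Hochberg adjustment over all genes. Every adjusted p below comes from limma. A larger share of probes was well above background on the plasmid arrays (69.1 to 75.8%) than on the siRNA arrays (61.2 to 68.0%). Within siRNA it was 61.2% on both scans of replicate 1/3 and 68.0% on replicate 2. Probes with every spot flagged as an outlier numbered 232 to 431 on the siRNA arrays and 23 to 107 on the plasmid arrays. The part of these differences in the results was not tested. No spot was saturated.

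Background for the genes that follow comes from textbook knowledge. Myoblasts commit to muscle through the transcription factors Myf5, Myod1, Myog and Myf6, fuse with the help of the membrane proteins Mymk and Mymx, and then build sarcomeres from myosin, actin, troponin and titin. Cells that sense foreign nucleic acid make type I interferon, which acts through the transcription factors STAT2 and IRF9 to raise a large set of antiviral genes. C2C12 cells are widely used to study the first of these programmes.

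Meg3, the gene named in the titles, was read by 3 probes. Its brightest probe stood at -7.74 and -6.88 in the siRNA samples, at -2.48 and -2.38 in the pcDNA3.1 samples and at -7.76 and -6.58 in the samples labelled pcDNA3.1-MEG3. It was well above background on all 3 pcDNA3.1 arrays and on no array of either other group. Against pcDNA3.1 the siRNA signal was at least 15.6-fold lower on this probe (adjusted p = 0.00675) and at least 5.17-fold lower on the second probe. The third probe was dim on all 9 arrays. The samples labelled pcDNA3.1-MEG3 went against their label on these probes, at least 18.9-fold lower than pcDNA3.1 on the first (adjusted p = 0.0186) and at least 6.83-fold lower on the second. Whether the probes read the plasmid's insert was not tested. The siRNA arrays therefore show low Meg3 against pcDNA3.1 alone.

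Of 24116 genes with a test, 5073 (21.0%) were higher and 4339 (18.0%) lower on the siRNA arrays. Together they make 39.0% of the genes tested, and 1279 higher and 1161 lower genes also changed by at least 1 on the log2 scale. In 4848 of the higher and 3931 of the lower calls both siRNA samples lay on that side of all 4 plasmid samples. Over all genes tested, called or not, this held for 6124 (25.4%) on the higher and 6611 (27.4%) on the lower side. The median gene stood at -0.11, and at 0.12 when arrays were scaled to their median in place of the 75th percentile. That scaling gave 6763 higher (28.0%) and 2047 lower (8.49%) calls, so 76.8% of calls were higher in place of 53.9%. Against single groups, 4023 genes were higher and 3610 lower than pcDNA3.1 (31.6% called), and 5379 higher and 3739 lower than the samples labelled pcDNA3.1-MEG3 (37.8% called). The plasmid groups differed from each other on 2533 genes (10.5%), of which 1490 (6.17%) were higher and 1043 (4.32%) lower in the samples labelled pcDNA3.1-MEG3. A stricter fit averaged each plasmid group to 1 sample, so that the difference between the plasmid groups entered the spread. It called 632 higher (2.62%) and 267 lower (1.11%) genes (3.73% in all), 887 of which were also called in the fit used here. These shares, and 21.0% and 18.0% in the fit used here, are the background for the list counts below. Normexp background correction, whose fit diverged on 3 of the 9 arrays, called none. Leaving out replicate 1/3 or replicate 2 of the samples labelled pcDNA3.1-MEG3 gave 6024 and 5916 calls. Leaving out a siRNA sample turned the split to more lower than higher calls, with 4163 higher and 5763 lower, or 4435 and 5612.

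**Figure D1:**
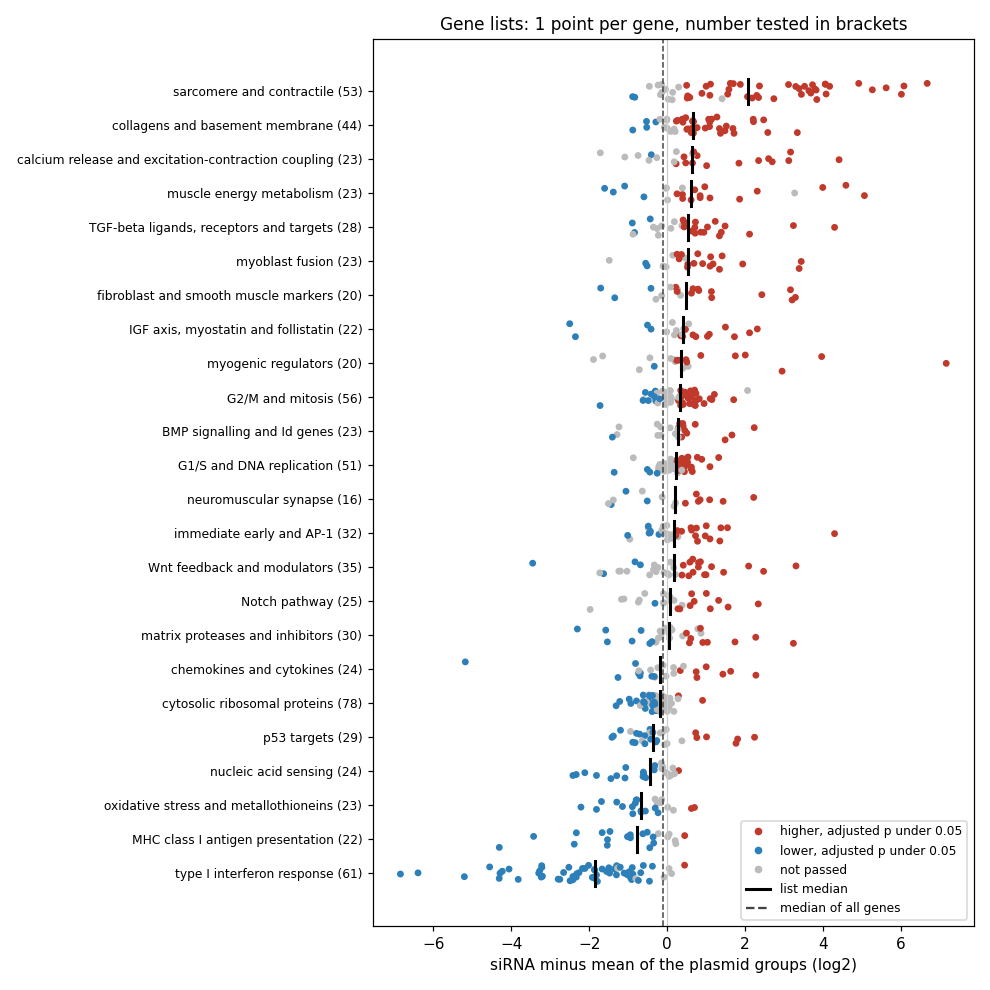
Difference between siRNA and the mean of the plasmid groups (log2, horizontal axis) for each tested gene of 24 lists, with the number tested in brackets. Black bars are list medians and the dashed line is the median of all genes at -0.11. The sarcomere list has the highest median (2.07) and the interferon list the lowest (-1.86).

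Genes of the contractile apparatus were higher on the siRNA arrays. Of 53 sarcomere and contractile genes tested, 40 rose and 2 fell, with a list median of 2.07 against -0.11 over all genes. The stricter fit called 26 higher and 0 lower, and the lower calls were 0 without any 1 plasmid sample or under median scaling, and 1 without siRNA replicate 1/3. Embryonic myosin heavy chain Myh3, the first sarcomeric myosin of forming myotubes, had levels of 3.46 and 3.42 in the siRNA samples, -2.57 and -2.63 in pcDNA3.1 and -2.69 and -2.7 in the samples labelled pcDNA3.1-MEG3. The difference was 6.09 log2 (SE 0.05, adjusted p = 0.000275), a 68-fold rise, and the 4 plasmid values lay within 0.13 log2 of each other. Perinatal Myh8 and adult fast Myh1 rose by 4.93 (SE 0.15) and 5.28 (SE 0.14), the latter from a level that was not well above background on any pcDNA3.1 array. Myh8 was well above background on only 2 pcDNA3.1 arrays, so the sizes of both rises are uncertain. Slow Myh7 rose by 1.88 (SE 0.09). Cardiac alpha Myh6 went the other way by -0.88 (SE 0.21, adjusted p = 0.0371), with siRNA values of -5.24 and -4.59 that overlapped those of the samples labelled pcDNA3.1-MEG3 (-4.46 and -4.6). That call was lost under several other settings, among them median scaling (adjusted p = 0.0716) and the stricter fit (adjusted p = 0.323). Among the heavy chains, the embryonic, perinatal, fast and slow forms measured were all higher, and the cardiac alpha form was not.

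The light chains did not all pass. Myl1, the essential light chain of fast fibres, stood at 4.75 and 4.58 in the siRNA samples against -1.0 to -0.92 in the 4 plasmid samples, a difference of 5.63 log2 (SE 0.08, adjusted p = 0.000297). The atrial and embryonic Myl4 rose by 3.39 (SE 0.05) and the slow and ventricular Myl3 by 1.1 (SE 0.17), a call that was lost in the stricter fit (adjusted p = 0.105). The regulatory chains Myl2 and Mylpf did not pass, at -0.23 (adjusted p = 0.576) and 0.03 (adjusted p = 0.934). Their siRNA replicates stood at -6.57 and -5.62 and at -4.72 and -3.86, each pair spanning most of the plasmid values. Neither gene had another kept probe, and Myl2 was well above background on only 1 siRNA array. Whether these forms differ from the others is therefore uncertain.

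Thin-filament genes rose in their skeletal and embryonic forms. Cardiac actin Actc1, the actin isoform of early myotubes, had levels of 3.12 and 3.09 in siRNA, -2.71 and -2.81 in pcDNA3.1 and -3.06 and -3.09 in the samples labelled pcDNA3.1-MEG3, and its difference was 6.02 log2 (SE 0.06, adjusted p = 0.000275). Skeletal actin Acta1 rose by 3.53 (SE 0.06) from -0.18 and -0.22 and 0.32 and 0.28 to 3.63 and 3.53. The plasmid groups differed on Acta1 by 0.50 log2 (adjusted p = 0.0301), while siRNA stood above both. Troponin T, which ties troponin to tropomyosin, rose in its slow (3.45), cardiac (4.07) and fast (3.31) forms. Troponin C, the calcium-binding subunit, rose in its fast form Tnnc2 (3.74, SE 0.05) and its slow form Tnnc1 (2.31, SE 0.06). The inhibitory subunit troponin I rose in its fast form Tnni2 (3.85) and slow form Tnni1 (3.12). Cardiac Tnni3 did not pass (0.13, adjusted p = 0.767) and was well above background on 1 siRNA array, 1 pcDNA3.1 array and all 3 arrays labelled pcDNA3.1-MEG3. Tnni1 and Tnnc1 lost their calls in the stricter fit (adjusted p = 0.076 and 0.0654), and on both the samples labelled pcDNA3.1-MEG3 were nearer to siRNA than pcDNA3.1 was.

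**Figure D2:**
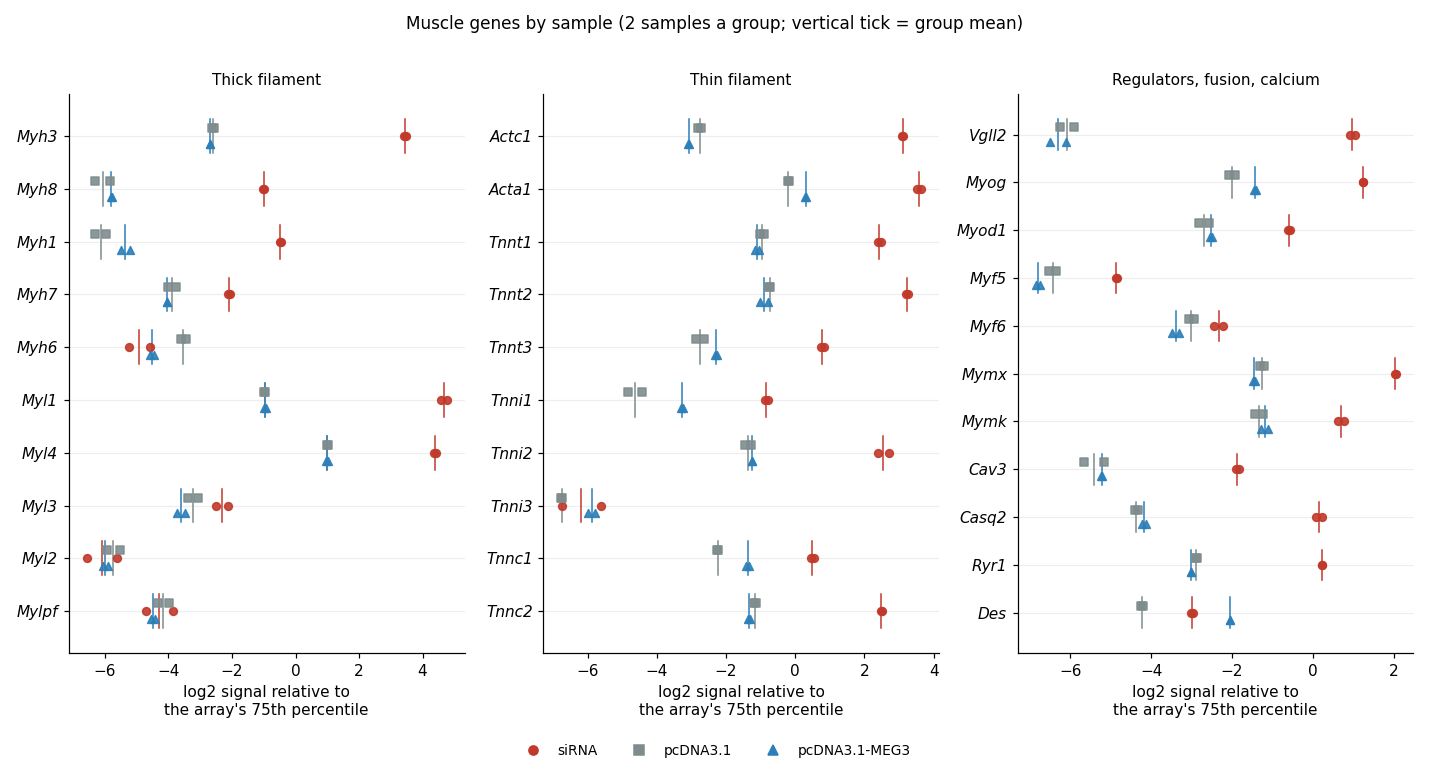
Levels of muscle genes (log2 signal relative to the array's 75th percentile, horizontal axis) in the 2 samples of each group, with a vertical tick at the group mean. The siRNA samples stand apart from all plasmid samples for Myh3, Actc1, Myl1, Vgll2 and Mymx, lie between the plasmid groups for Des, and overlap the range of the plasmid samples for Myl2, Mylpf and Tnni3.

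The giant scaffold proteins moved with the filaments. Titin (Ttn), which spans the sarcomere from Z-disc to M-line, stood at 2.61 and 2.59 on the siRNA arrays against -1.15 and -1.18 and -1.87 and -1.75, a difference of 4.09 (SE 0.06, adjusted p = 0.000297). Nebulin (Neb), the ruler of the thin filament, rose by 4.07 (SE 0.08), and Pdlim3, a Z-disc protein that binds alpha-actinin, by 6.68 (SE 0.08), from -5.19 to -4.8 to 1.69 and 1.6. Desmin (Des), the intermediate filament around the Z-disc, did not follow them. Its levels were -3.03 and -2.97 in siRNA, -4.19 and -4.26 in pcDNA3.1 and -2.05 and -2.06 in the samples labelled pcDNA3.1-MEG3, so siRNA was 1.23 above one plasmid group and 0.94 below the other. The difference from their mean, 0.14, did not pass (adjusted p = 0.107), while that between the plasmid groups, 2.17, did (adjusted p = 0.00451). The tropomyosins Tpm1 and Tpm2 rose by less, 0.90 and 0.50, and lost their calls in the stricter fit (adjusted p = 0.101 and 0.155).

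Promoters of 3 of these genes are shown because their transcripts rose together. They are the 250 bases before the RefSeq start of each gene on build GRCm38.p6, written 5′ to 3′ along the gene's strand. Capitals mark the E-box CAGCTG (a form of the sequence bound by the MyoD family) in Myl1 and Tnnt2, and the CArG box (the sequence bound by serum response factor) in Actc1.
Myl1, chr1:66945057-66945306, minus strand: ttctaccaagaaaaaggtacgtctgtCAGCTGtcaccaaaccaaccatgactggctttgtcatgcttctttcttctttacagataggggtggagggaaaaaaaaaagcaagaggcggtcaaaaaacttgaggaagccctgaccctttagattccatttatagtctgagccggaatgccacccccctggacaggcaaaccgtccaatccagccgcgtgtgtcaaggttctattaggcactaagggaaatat
Tnnt2, chr1:135836084-135836333, plus strand: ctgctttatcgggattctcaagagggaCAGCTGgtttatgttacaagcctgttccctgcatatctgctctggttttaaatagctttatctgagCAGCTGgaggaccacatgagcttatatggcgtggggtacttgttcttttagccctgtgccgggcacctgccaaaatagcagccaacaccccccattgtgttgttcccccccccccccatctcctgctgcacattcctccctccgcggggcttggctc
Actc1, chr2:114052876-114053125, minus strand: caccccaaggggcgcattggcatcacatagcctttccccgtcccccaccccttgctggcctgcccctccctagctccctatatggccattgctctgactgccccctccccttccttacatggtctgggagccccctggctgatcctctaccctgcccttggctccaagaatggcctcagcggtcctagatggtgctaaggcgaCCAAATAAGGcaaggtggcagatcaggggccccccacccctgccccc
Searched on both strands over 250 bases, CAGCTG was present in 16 of 40 sarcomere genes with a promoter entry (40%), against 14.7% of all 27025 genes in the table. The CArG box was present in 5 (12.5%, against 1.62%), and the MEF2 motif in 7 (17.5%, against 3.42%). Among all genes called higher, CAGCTG was present in 15.7%, the CArG box in 2.29% and the MEF2 motif in 2.52%. Among the genes tested these shares were 14.4%, 1.55% and 2.32%. A match is a run of letters, not a measured binding site.

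The machinery that couples the membrane signal to contraction rose in part. Of 23 genes of calcium release and excitation-contraction coupling, 14 rose and 1 fell (median 0.65), and the stricter fit called 7 higher and 0 lower. The lower calls were 0 without any 1 plasmid sample or under median scaling, 4 without siRNA replicate 1/3 and 2 without siRNA replicate 2. Casq2, a calsequestrin that stores calcium in the sarcoplasmic reticulum, rose by 4.42 (SE 0.07, adjusted p = 0.000297), from -4.4 to -4.12 in the plasmid samples to 0.08 and 0.22. The release channel Ryr1 rose by 3.17 (SE 0.05) and its voltage sensor Cacna1s by 2.7 (SE 0.10). Sarcalumenin (Srl), a calcium-binding protein of the reticulum, rose by 3.13, and Stac3, an adaptor of the voltage sensor, by 1.85. The fast calcium pump Atp2a1 rose by only 0.23 (SE 0.06), with siRNA values between those of the plasmid groups, and was lost in the stricter fit (adjusted p = 0.678). The junctophilin Jph2 stood at -4.38 and -6.05 in siRNA and -4.47 to -3.75 in the plasmid samples and did not pass (adjusted p = 0.174).

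Among regulators of myogenesis, all 4 factors of the MyoD family were higher. Of 20 genes, 10 rose and 1 fell (median 0.36), with 5 higher and 0 lower in the stricter fit. The lower calls were 3 without siRNA replicate 1/3, 2 without siRNA replicate 2, and 0 with either pcDNA3.1 sample left out, without replicate 2 labelled pcDNA3.1-MEG3 or under median scaling. Myog, which drives terminal differentiation, stood at 1.25 and 1.24 in siRNA, -1.92 and -2.07 in pcDNA3.1 and -1.45 and -1.41 in the samples labelled pcDNA3.1-MEG3. Its difference was 2.96 log2 (SE 0.06, adjusted p = 0.000331). Myod1 rose by 2.01 (SE 0.09) and Myf5 by 1.76 (SE 0.08), both early determination factors. Myf5 was well above background on 2 pcDNA3.1 arrays and 1 array labelled pcDNA3.1-MEG3, so the size of its rise is uncertain. Myf6 rose by 0.87 (SE 0.10), which was lost in the stricter fit (adjusted p = 0.13). Vgll2, a muscle cofactor of TEAD transcription factors, went from -6.5 to -5.92 to 0.92 and 1.03, a difference of 7.17 (SE 0.17, adjusted p = 0.000349). It was well above background on 2 arrays of each plasmid group, so the size of its rise is uncertain too. Rbm24, a muscle splicing regulator, rose by 3.97 (SE 0.20). The MEF2 factors, partners of the MyoD family, did not pass: Mef2a, Mef2b, Mef2c and Mef2d had differences of 0.21, -1.89, -0.71 and 0.54 (adjusted p = 0.0768, 0.0693, 0.358 and 0.0647). Pax7, the marker of satellite cells, had siRNA values of -5.94 and -3.24 against -3.09 to -2.72, and did not pass (adjusted p = 0.18).

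Fusion genes moved with them. Of 23 genes, 16 rose and 2 fell (median 0.53), with 4 higher and 0 lower in the stricter fit. The lower calls were 1 without replicate 1/3 of either plasmid group or under median scaling. The fusogen Mymx rose by 3.39 (SE 0.06, adjusted p = 0.000297), from -1.48 to -1.2 to 2.05 and 2.04, and its partner Mymk by 1.94 (SE 0.10). Cav3, the caveolin of muscle membranes, rose by 3.45 (SE 0.16), the integrin subunit Itga7 by 1.35 and dysferlin (Dysf), which reseals membranes, by 1.18. The adaptor Elmo1 was called lower at -0.51, but its siRNA values (-5.45 and -5.32) lay at those of pcDNA3.1 (-5.37 and -5.54) and below those of the samples labelled pcDNA3.1-MEG3 (-4.19 and -4.39). Dysf and Elmo1 lost their calls in the stricter fit (adjusted p = 0.0858 and 0.483).

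Muscle metabolism and the synapse showed a mixture. Of 23 muscle energy genes, 14 rose and 4 fell (median 0.62), where 21.0% of all genes were called higher and 18.0% lower. The lower calls were thus near the share over all genes, and the stricter fit called 5 higher and 1 lower. Myoglobin (Mb), which stores oxygen, rose by 4.0 (SE 0.07), the oxidase subunit Cox8b by 4.6 (SE 0.10) and the muscle phosphoglycerate mutase Pgam2 by 2.32. Pgam2 was well above background on only 1 pcDNA3.1 array, so the size of its rise is uncertain. The muscle ADP-ribosyltransferase Art1, not well above background on any plasmid array, was at least 9.66-fold higher (adjusted p = 0.000405). Another muscle subunit of the same oxidase, Cox6a2, fell by 1.6 (SE 0.05, adjusted p = 0.00056), from 2.28 to 2.43 to 0.78 and 0.76. Of 16 neuromuscular synapse genes, 7 rose and 3 fell, where 21.0% of all genes were called higher and 18.0% lower. The stricter fit called 1 synapse gene higher and 0 lower. Without any 1 plasmid sample 1 fell, 5 fell without siRNA replicate 1/3, and under median scaling 8 rose and 1 fell. The acetylcholine receptor subunits Chrna1, Chrnb1 and Chrnd rose by 1.09, 1.44 and 2.23. The fetal subunit Chrng (0.18, adjusted p = 0.556) and the adult subunit Chrne (adjusted p = 0.22) did not pass, and Chrne was not well above background on any siRNA array. Agrin (Agrn), the nerve-derived organiser of the synapse, fell by 1.43 (SE 0.12). In the stricter fit Chrna1, Chrnb1 and Agrn were just outside the threshold (adjusted p = 0.0663, 0.0512 and 0.0529).

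The largest set of falls was in the type I interferon response. Of 61 genes tested, 54 fell, 1 rose and the median was -1.86, where 18.0% of all genes were called lower. The stricter fit called 32 lower and 0 higher. Oas2 and Oas1a, which make oligoadenylates that switch on RNase L, fell the most of the genes named here. Oas2 stood at -4.16 and -4.51 in the siRNA samples, 2.51 and 2.46 in pcDNA3.1 and 2.59 and 2.5 in the samples labelled pcDNA3.1-MEG3, a difference of -6.85 log2 (SE 0.12, adjusted p = 0.000297). Oas1a stood at -3.23 and -3.14, 2.83 and 3.2 and 3.4 and 3.42, a difference of -6.4 (SE 0.12). Oas1f, of the same gene cluster, differed by -4.85 (SE 0.10). Near-identical paralogs can share probe signal, so the values within this cluster are uncertain as to gene. Both plasmid groups were high, and neither siRNA sample came within 5 log2 units of any plasmid sample on Oas2 or Oas1a.

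Effectors with other functions fell with the oligoadenylate synthetases. Ifit1, which binds foreign RNA ends, fell by 4.31 (SE 0.09), from 3.21 and 3.04 and 3.31 and 3.15 to -1.08 and -1.19. Rsad2 (viperin), which makes a chain-terminating nucleotide, fell by 4.29 (SE 0.05), and its gene neighbour Cmpk2 was at least 6.57-fold lower, not well above background on any siRNA array. The ubiquitin-like modifier Isg15 fell by 4.23 (SE 0.07). Usp18, the protease that removes it, fell by 4.56 (SE 0.09). Ifi44 fell by 5.21, Ifit3b fell by 3.23, and Bst2 (tetherin), which holds budding virus at the membrane, fell by 3.22. The plasmid groups differed on Bst2 by 0.95 log2 (adjusted p = 0.00723), and siRNA lay below both (-1.57 and -1.58, against 1.2 and 1.15 and 2.09 and 2.15). The signalling genes Stat2 and Irf9 fell, with differences of -1.85 and -2.02. Irf7, which amplifies interferon induction, was at least 3.37-fold lower (adjusted p = 0.00308) but was not called in the stricter fit (adjusted p = 0.223). It stood at -6.17 and -5.8 in pcDNA3.1 and -3.23 and -3.35 in the samples labelled pcDNA3.1-MEG3, and was not well above background on any siRNA array.

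The 6 interferon genes that did not pass were Irf1, Isg20, Ifitm1, Slfn8, Tgtp1 and Trim21. Irf1, also induced by type II interferon, differed by -0.08 (adjusted p = 0.289), with levels of 3.12 and 3.07 in siRNA and 3.14 to 3.21 in the plasmid samples. Isg20 and Ifitm1 differed by 0.05 and 0.12. Ifitm2, one of the membrane proteins that block viral entry, was the single gene called higher, by 0.45 (SE 0.06, adjusted p = 0.0075), while its neighbour Ifitm3 fell by 0.61 (SE 0.05). Neither call held in the stricter fit (adjusted p = 0.256 and 0.114).

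**Figure D3:**
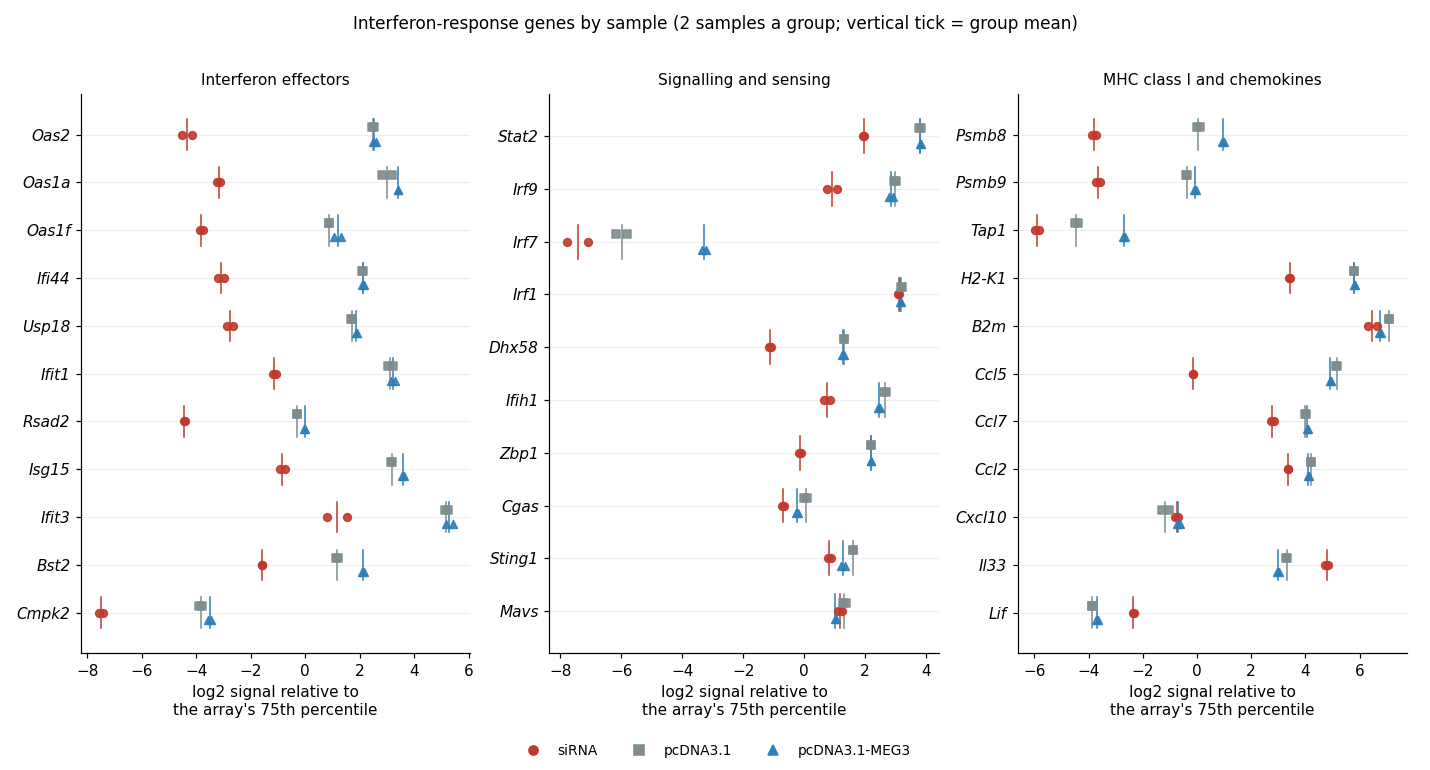
Levels of interferon-response, sensor, antigen-presentation and chemokine genes (log2 signal relative to the array's 75th percentile, horizontal axis) in the 2 samples of each group, with a vertical tick at the group mean. Both siRNA samples lie below every plasmid sample for the interferon effectors shown, and among the plasmid samples for Mavs and Cxcl10.

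Promoters of 4 of these genes are shown because their transcripts fell together, from the same RefSeq table and build. Capitals mark GAAANNGAAA, the core of the interferon-stimulated response element (ISRE), on either strand. In Isg15 and Oas1a the matches overlap each other.
Ifit1, chr19:34640639-34640888, plus strand: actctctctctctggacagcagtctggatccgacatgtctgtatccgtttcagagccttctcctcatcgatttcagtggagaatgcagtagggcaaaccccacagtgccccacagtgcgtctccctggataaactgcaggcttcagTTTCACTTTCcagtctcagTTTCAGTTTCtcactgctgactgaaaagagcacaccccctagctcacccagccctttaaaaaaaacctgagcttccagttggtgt
Isg15, chr4:156200819-156201068, minus strand: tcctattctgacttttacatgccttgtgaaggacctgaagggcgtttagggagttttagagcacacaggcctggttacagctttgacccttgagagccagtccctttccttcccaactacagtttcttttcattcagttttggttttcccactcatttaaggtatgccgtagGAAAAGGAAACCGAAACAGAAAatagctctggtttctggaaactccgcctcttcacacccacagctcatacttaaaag
Rsad2, chr12:26456453-26456702, minus strand: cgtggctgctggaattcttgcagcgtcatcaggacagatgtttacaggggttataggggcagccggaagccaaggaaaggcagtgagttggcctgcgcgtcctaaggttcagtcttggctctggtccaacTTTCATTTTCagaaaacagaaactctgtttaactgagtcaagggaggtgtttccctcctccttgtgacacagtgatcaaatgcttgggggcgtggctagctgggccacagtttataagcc
Oas1a, chr5:120907526-120907775, minus strand: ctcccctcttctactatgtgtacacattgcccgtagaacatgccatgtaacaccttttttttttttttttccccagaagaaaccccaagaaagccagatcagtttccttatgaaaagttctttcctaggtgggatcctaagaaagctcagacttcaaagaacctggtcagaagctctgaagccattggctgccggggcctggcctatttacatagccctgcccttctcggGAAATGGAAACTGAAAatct
The motif was present in 20 of 50 interferon-list genes with a promoter entry (40%), against 3.46% of all genes in the table. Among all genes called lower it was present in 115 of 2428 (4.74%), among those called higher in 90 of 3051 (2.95%), and among those that did not pass in 3.2%. None of the 40 sarcomere genes held it in this window.

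Antigen presentation by MHC class I fell with the interferon genes. Of 22 genes, 16 fell and 1 rose (median -0.78), with 4 lower in the stricter fit. Under median scaling 11 fell and 3 rose, and 2 rose without pcDNA3.1 replicate 2 or siRNA replicate 2. Psmb8 and Psmb9, catalytic subunits of the immunoproteasome, fell, with differences of -4.31 (SE 0.08) and -3.43 (SE 0.07). The heavy chain H2-K1 fell by 2.38 (SE 0.05), from 5.79 to 5.81 to 3.44 and 3.39, though probes of the class I heavy chains may share sequence. The peptide transporter Tap1 fell by 2.33 (SE 0.07), with -4.4 and -4.49 in pcDNA3.1 and -2.71 and -2.66 in the samples labelled pcDNA3.1-MEG3, a difference between the plasmid groups of 1.76 (adjusted p = 0.00459). Tap1 was well above background on only 1 siRNA array, so the size of its fall is uncertain. Its call was lost in the stricter fit (adjusted p = 0.16). The shared light chain B2m fell by 0.44 (SE 0.12), and the chaperone Canx, which folds glycoproteins in general, rose by 0.45 (SE 0.06). Neither call held in the stricter fit (adjusted p = 0.309 and 0.21).

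Sensors of nucleic acid fell in part. Of 24 genes, 14 fell and 1 rose (median -0.44), with 5 lower in the stricter fit. Under median scaling 9 fell and 3 rose (median -0.21), and 0 rose without any 1 plasmid sample. The RNA sensors Dhx58 and Ifih1 fell, with differences of -2.42 (SE 0.05) and -1.81 (SE 0.08). Zbp1, which binds left-handed nucleic acid, fell by 2.33 (SE 0.05). The nuclear DNA-binding protein Ifi204 fell by 1.44. The DNA sensor Cgas and its adaptor Sting1 fell by less (-0.62 and -0.61), and neither call held in the stricter fit (adjusted p = 0.15 and 0.17). The adaptor Mavs (0.01) and the transcription factor Irf3 (0.15) did not pass.

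Chemokines and cytokines went both ways, with 7 of 24 higher and 8 lower, where 21.0% of all genes were called higher and 18.0% lower. The stricter fit called 3 higher and 2 lower, and the lower calls were 5 under median scaling or without replicate 2 labelled pcDNA3.1-MEG3. Their median was -0.17, and 0.06 under median scaling. Ccl5, which attracts T cells and monocytes, fell by 5.18 (SE 0.05, adjusted p = 0.000275), from 5.14 and 5.18 and 4.96 and 4.89 to -0.15 and -0.13. The monocyte attractants Ccl7 and Ccl2 fell, with differences of -1.26 and -0.81, the latter lost in the stricter fit (adjusted p = 0.0782). Cxcl10, an interferon-induced chemokine, did not follow them: its siRNA values of -0.69 and -0.82 lay among the plasmid values of -1.28 to -0.63 (adjusted p = 0.22). Interleukin 33 (Il33), an alarm signal of stromal cells, rose by 1.63 (SE 0.06), leukaemia inhibitory factor (Lif) by 1.43 (SE 0.06), and Il1b, not well above background on any plasmid array, was at least 4.07-fold higher.

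Smooth muscle and TGF-beta target genes were higher on the siRNA arrays. Of 20 fibroblast and smooth muscle markers, 12 rose and 3 fell (median 0.49), where 21.0% of all genes were called higher and 18.0% lower. The lower calls were thus near the share over all genes, and the stricter fit called 4 higher and 2 lower. The smooth muscle actin Actg2 stood at 3.99 and 4.0 in siRNA against 0.83 and 0.90 and 0.51 and 0.54, a difference of 3.3 (SE 0.05, adjusted p = 0.000297). Calponin (Cnn1), transgelin (Tagln) and the light chain Myl9, all parts of the actin cytoskeleton of smooth muscle, rose by 3.21, 3.17 and 2.44. Acta2, the actin of myofibroblasts, rose by 0.79 (SE 0.05). The surface markers of mesenchymal progenitors Cd34 and Ly6a fell, with differences of -1.7 (SE 0.06) and -1.34 (SE 0.05). Pdgfra, a receptor of the same cells, fell by 0.41. Besides cytoskeletal genes, the listed genes Fap, Pdgfrb, S100a4 and Tcf4 were called higher, and Vim and Thy1 did not pass. Tcf4 was listed by its symbol, and whether that gene marks fibroblasts was not tested. In the stricter fit Acta2, Pdgfra, Fap, Pdgfrb, S100a4 and Tcf4 lost their calls (adjusted p = 0.145, 0.335, 0.209, 0.121, 0.432 and 0.121).

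Of 28 TGF-beta ligands, receptors and targets, 17 rose and 3 fell (median 0.54), with 4 higher in the stricter fit. The target Ccn2, a matricellular growth factor also induced through YAP and serum response factor, rose by 4.3 (SE 0.05). Ccn2 stood at 3.36 and 3.34 in siRNA and -1.03 to -0.89 in the plasmid samples. The ligand Tgfb2 rose by 1.39 (SE 0.06) and Tgfb1 by 0.73, although Tgfb1 in siRNA (-0.98 and -1.04) was close to the samples labelled pcDNA3.1-MEG3 (-1.1 and -1.07) and above pcDNA3.1 (-2.38 and -2.4). Follistatin (Fst), an antagonist of activin and myostatin, rose by 2.12 (SE 0.06), and the activin subunit Inhba by 1.35. Tgfb1 and Inhba lost their calls in the stricter fit (adjusted p = 0.401 and 0.0514). The receptor Tgfbr1 did not pass (-0.35, adjusted p = 0.664, with 1 pcDNA3.1 sample missing).

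The matrix rose broadly and by moderate amounts. Of 44 collagen and basement membrane genes, 32 rose and 4 fell (median 0.66), and the stricter fit called 5 higher and 0 lower. The lower calls were 1 under median scaling and 2 with either sample labelled pcDNA3.1-MEG3 left out. The 3 chains of collagen VI, which surrounds muscle fibres, rose: Col6a1 by 1.35, Col6a2 by 2.22 and Col6a3 by 1.37 (SE 0.06, 0.05 and 0.05). Col6a1 and Col6a3 were lost in the stricter fit (adjusted p = 0.0649 and 0.0886). Col5a3 rose by 2.59 (SE 0.08) and the basement membrane chain Col4a1 by 1.09 (SE 0.06, adjusted p = 0.0531 in the stricter fit). Fibrillar Col3a1 (-0.18), Col1a2 (0.09) and fibronectin Fn1 (0.01) did not pass. Col1a1 rose by 2.21 (SE 0.24), with 1 pcDNA3.1 sample missing. Of 30 matrix proteases and inhibitors, 9 rose and 7 fell, where 21.0% of all genes were called higher and 18.0% lower. Stromelysin Mmp10 rose by 2.28 (SE 0.07), while Mmp3, its close relative, fell by 1.53 (SE 0.08) and collagenase Mmp13 fell by 2.3 (SE 0.07). The protease inhibitor Serpine2 fell by 1.57 (SE 0.07), with a difference between the plasmid groups of 0.48, and was lost in the stricter fit (adjusted p = 0.0624). That fit called 3 of the proteases and inhibitors higher and 2 lower.

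**Figure D4:**
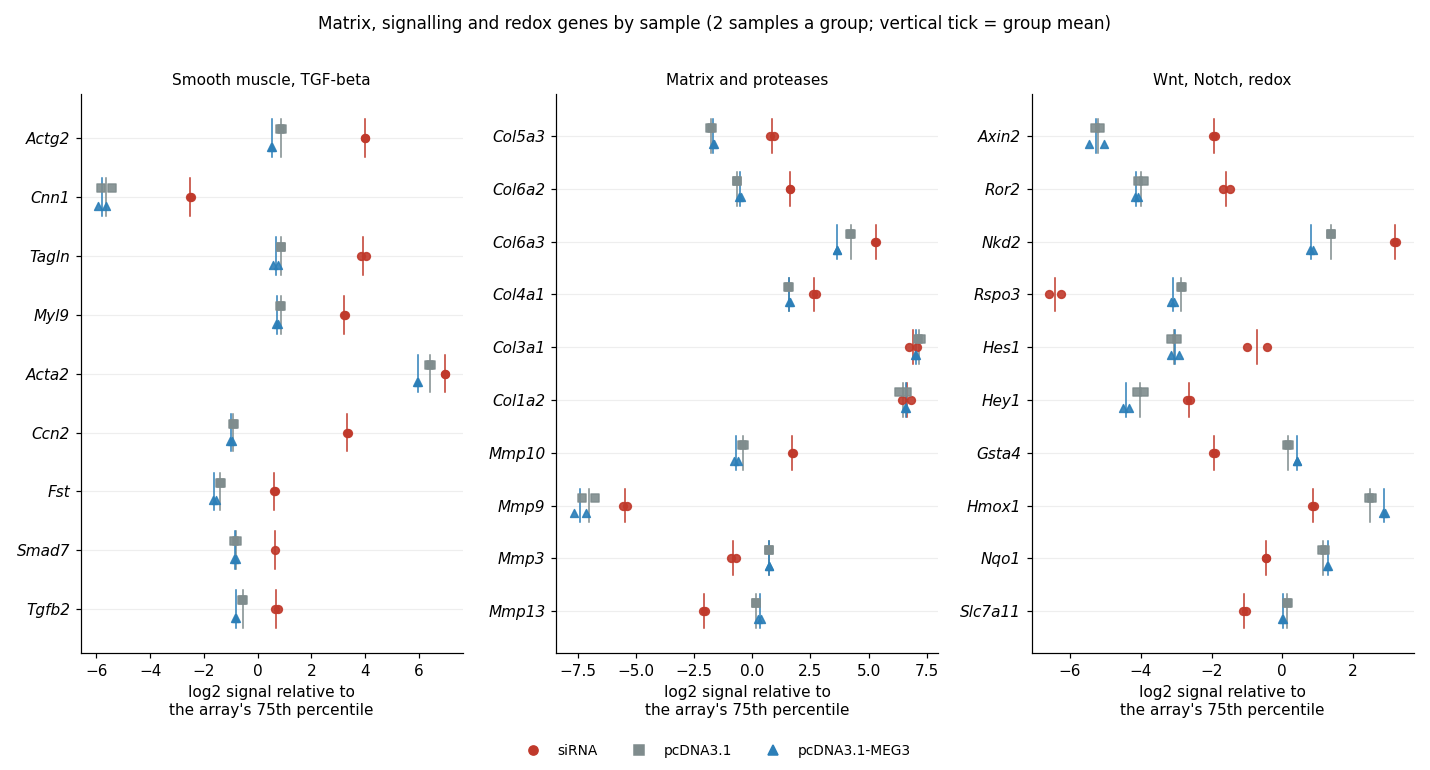
Levels of smooth muscle, TGF-beta, matrix, Wnt, Notch and redox genes (log2 signal relative to the array's 75th percentile, horizontal axis) in the 2 samples of each group, with a vertical tick at the group mean (Smad7 has 1 siRNA sample). The siRNA samples lie above all plasmid samples for Actg2, Ccn2 and Axin2, below them for Mmp13 and Gsta4, and overlap their range for Col3a1 and Col1a2.

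Growth factor and patterning pathways each held a few strong members. Of 22 genes of the IGF axis, 11 rose and 4 fell, where 21.0% of all genes were called higher and 18.0% lower. The stricter fit called 2 higher and 1 lower, and 2 fell under median scaling. Igf1 rose by 1.5 (SE 0.07) and Igf2, its fetal relative, by 1.09 (SE 0.14). The binding protein Igfbp2 rose by 1.73 (SE 0.06), with siRNA at -0.06 and -0.04, pcDNA3.1 at -2.36 and -2.32 and the samples labelled pcDNA3.1-MEG3 at -1.29 and -1.17. Igf1, Igf2 and Igfbp2 lost their calls in the stricter fit (adjusted p = 0.0574, 0.0724 and 0.133). The RNA-binding protein Igf2bp3 fell by 2.35 (SE 0.15). Of 35 Wnt genes, 16 rose and 4 fell, with 4 higher and 1 lower in the stricter fit. The lower calls came to 9 without siRNA replicate 1/3 and 7 without siRNA replicate 2. The feedback inhibitors Axin2 and Nkd2 rose by 3.31 (SE 0.14) and 2.1 (SE 0.06), and the Wnt5a receptor Ror2 by 2.48 (SE 0.10). The secreted amplifier Rspo3, not well above background on any siRNA array, was at least 8.74-fold lower (adjusted p = 0.000585), and Ccnd1 did not pass (0.05).

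Of 25 Notch pathway genes, 10 rose and 1 fell, with 1 higher and 0 lower in the stricter fit. Over all genes 21.0% were called higher and 18.0% lower in the fit used here. The lower calls in the Notch list were 0 under median scaling. The target repressors Hes1 and Hey1 rose by 2.34 (SE 0.20) and 1.57 (SE 0.09), and the ligands Dll1 and Jag2 by 1.11 and 1.33. The receptor Notch1 did not pass (0.02), and Notch3 fell by 0.31. Hey1, Dll1, Jag2 and Notch3 lost their calls in the stricter fit (adjusted p = 0.0528, 0.064, 0.0508 and 0.278). Of 23 BMP genes, 11 rose (6 without pcDNA3.1 replicate 2 and 7 without siRNA replicate 1/3) and 1 fell (2 with either siRNA sample left out), with 2 higher and 0 lower in the stricter fit. The secreted BMP antagonist Grem1 fell by 1.4 (SE 0.06, adjusted p = 0.0707 in the stricter fit). Id2, an inhibitor of bHLH factors, rose by 1.67 (SE 0.09). Of 32 immediate early genes, 15 rose and 6 fell, where 21.0% of all genes were called higher and 18.0% lower. The lower calls were thus near the share over all genes, and under median scaling 16 rose and 0 fell. Without any 1 plasmid sample 2 to 3 fell, and the stricter fit called 4 higher and 0 lower. Fos, Egr1 and Egr2, induced by serum and stress, rose by 1.38, 1.55 and 1.36, while Jun fell by 0.43 with siRNA values at those of pcDNA3.1 (adjusted p = 0.486 in the stricter fit).

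Cell cycle genes changed by small amounts. Of 51 replication and G1/S genes, 21 rose and 4 fell (median 0.22), where 21.0% of all genes were called higher and 18.0% lower. Of 56 mitotic genes, 30 rose and 9 fell (median 0.34). The stricter fit called 2 and 0 of them higher and none lower. Leaving out 1 sample at a time left 12 to 20 higher calls in the first list, with 12 without pcDNA3.1 replicate 2 or either sample labelled pcDNA3.1-MEG3, and 23 to 28 in the second. Without any 1 plasmid sample 1 to 2 fell in the first list and 2 to 5 in the second, where 5 fell without siRNA replicate 2. Median scaling gave 27 higher and 1 lower in the first list and 33 higher and 1 lower in the second. Cdc6, which loads the replicative helicase, rose by 1.33 (SE 0.07), and thymidine kinase Tk1 by 1.1 (SE 0.05). The mitotic regulator Melk rose by 1.15 (SE 0.06) and Mki67, a marker of cycling cells, by 0.75 (SE 0.07), with levels of 3.13 and 3.28 against 2.35 to 2.53. Top2a (-0.04) and Ccnb1 (-0.25) did not pass, and Cdc20 fell by 0.29. A second probe of Foxm1, which rose by 1.22 on its brightest probe, went the other way at -0.24. Melk, Mki67, Cdc20 and Foxm1 lost their calls in the stricter fit (adjusted p = 0.0581, 0.101, 0.306 and 0.0545).

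Of 29 p53 target genes, 14 fell and 6 rose (median -0.36), where 18.0% of all genes were called lower and 21.0% higher. The higher calls were thus near the share over all genes. Under median scaling 7 fell and 6 rose, and the stricter fit called 0 lower and 2 higher. The genes that rose included the membrane protein Perp (2.25, SE 0.07) and the apoptosis activator Pmaip1 (1.77, SE 0.05). Those that fell included the pore-forming Bax (-1.38, SE 0.05), the repair nuclease Ercc5 (-1.42, SE 0.07), the cell cycle inhibitor Cdkn1a (-0.36, SE 0.05) and Trp53 itself (-0.78, SE 0.09). None of these last 4 passed in the stricter fit, with Bax and Ercc5 nearest (adjusted p = 0.0756 and 0.0687).

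Antioxidant genes were lower. Of 23 genes of oxidative stress and metal handling, 15 fell and 2 rose (median -0.66), with 3 lower in the stricter fit (1 rose without replicate 1/3 labelled pcDNA3.1-MEG3). Gsta4, a glutathione transferase for lipid aldehydes, fell by 2.21 (SE 0.05, adjusted p = 0.000356), from 0.13 and 0.19 and 0.40 and 0.41 to -1.9 and -1.95. Haem oxygenase Hmox1 and the quinone reductase Nqo1, both targets of the factor NRF2, fell, with differences of -1.81 (SE 0.06) and -1.68 (SE 0.05). The cystine transporter Slc7a11 fell by 1.14 (SE 0.06) and the metallothioneins Mt1 (-0.66) and Mt2 (-0.81) fell too. Nfe2l2, the gene of NRF2, did not pass (0.02, adjusted p = 0.806), and glutathione peroxidase Gpx1 rose by 0.71 (SE 0.11). Slc7a11, Mt1, Mt2 and Gpx1 lost their calls in the stricter fit (adjusted p = 0.0512, 0.147, 0.0928 and 0.107).

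Of 78 cytosolic ribosomal protein genes, 25 fell and 2 rose, with a median of -0.18 that lay near the -0.11 of all genes. Under median scaling the median was 0.05 and 5 fell, leaving out any 1 of the 4 plasmid samples gave 10 to 14 lower calls, and the stricter fit called none in either direction. The higher calls were 1 with either pcDNA3.1 sample left out, and 0 with either sample labelled pcDNA3.1-MEG3 or siRNA replicate 2 left out. Rpl19 and Rps19 fell, with differences of -1.31 (SE 0.08) and -1.22 (SE 0.09), and the samples labelled pcDNA3.1-MEG3 were 0.94 and 1.03 above pcDNA3.1 on them. Ribosomal protein genes have many processed pseudogenes with which a probe can share sequence.

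Outside the lists, the genes with the largest rises among those well above background on all 9 arrays were led by Alox5, which makes leukotrienes. It stood at 1.52 and 1.16 in siRNA, -5.4 and -5.74 in pcDNA3.1 and -5.68 and -5.73 in the samples labelled pcDNA3.1-MEG3, a difference of 6.98 log2 (SE 0.16, adjusted p = 0.000332). The secreted protein Cthrc1, found in remodelling matrix, rose by 6.23 (SE 0.16), Glipr1 by 5.29 (SE 0.19) and the lysosomal protease cathepsin C (Ctsc) by 4.71 (SE 0.05). The retinol transporter Stra6 rose by 4.41, Tceal7 by 4.35 and the neurofilament light chain Nefl, a protein of axons, by 4.53 (SE 0.24). Among the genes that were not well above background on any plasmid array, the largest bounds were Acsl6, an acyl-CoA synthetase, at least 14.9-fold higher, Chil1, a secreted chitinase-like protein, at least 14.8-fold, and Lrrn1, at least 14.2-fold. The B-cell chemokine Cxcl13 was at least 12.4-fold higher, Ecrg4 at least 12.1-fold and Tecrl at least 12.1-fold.

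Falls outside the lists included the pancreatic trypsins Try5 (-4.73, SE 0.10) and Try4 (-4.59, SE 0.08), whose near-identical copies can share probe signal. The ferritin receptor Scara5 fell by 4.48 (SE 0.07), from 1.1 to 1.24 to -3.23 and -3.39, and by 2.64 over the median of its probes. The kinase Dyrk4 fell by 4.53, and osteocrin (Ostn), a hormone of bone and muscle, fell by 4.4 (SE 0.07). Among the genes that were not well above background on any siRNA array, the cadherin Cdh22 was at least 14.8-fold lower, Pdzrn4 at least 8.55-fold and the taste receptor Tas2r119 at least 5.68-fold. The splicing factor U2af2 was at least 5.36-fold lower on its probe, with plasmid levels of -4.88 and -4.56 and -2.76 and -2.79. Tas2r119 and U2af2 lost their calls in the stricter fit (adjusted p = 0.096 and 0.143).

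**Figure D5:**
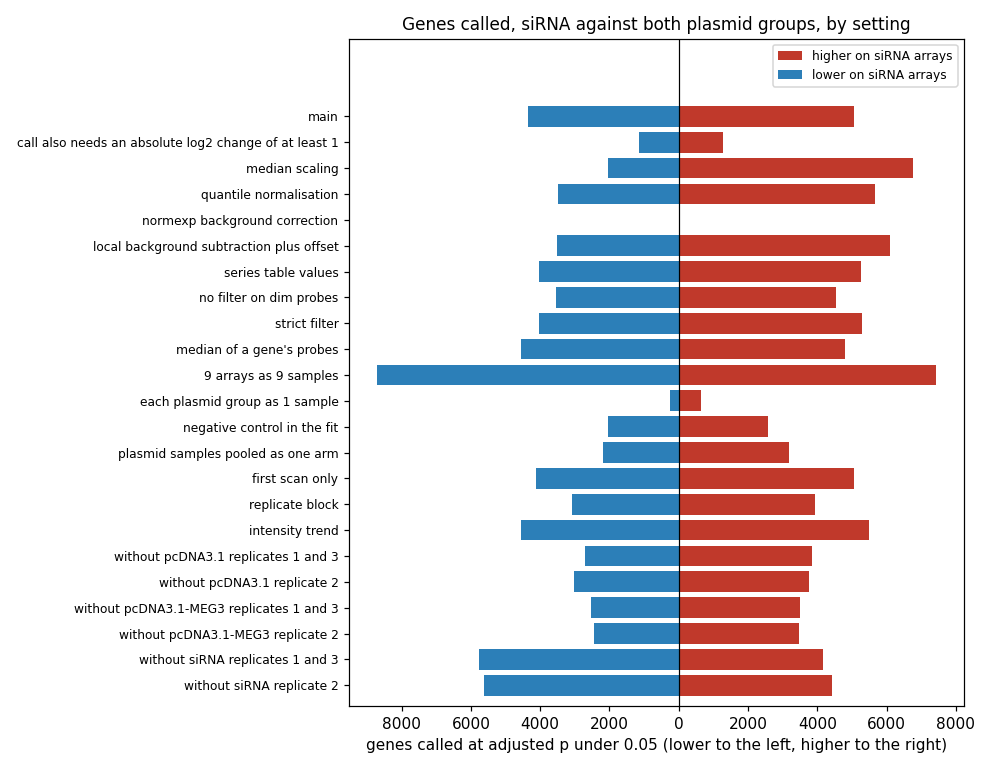
Genes called at an adjusted p under 0.05 for siRNA against both plasmid groups under each processing setting, with lower calls to the left and higher calls to the right of 0. The fit used in the text called 5073 higher and 4339 lower, the setting with each plasmid group as 1 sample called 632 and 267, and normexp background correction none.

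Markers of cell types were read as whole lists, but a sum of linear signal rests mostly on its brightest probes. In the siRNA samples these were Chrna1 and Itga7 for muscle (mean levels of 5.05 and 4.26). They were Acta2 for smooth muscle (6.98) and Col3a1 for fibroblasts (6.92). The sums therefore say little of the dimmer members. Of 7 muscle markers, 5 rose, Des and Pax7 did not pass, and the summed level (linear signal over the 75th percentile) was 55.2 to 56.4 in the siRNA samples and 22.6 to 25.9 in the plasmid samples. Desmin, Myod1 and Cdh15, which define myoblasts, were well above background on all 9 arrays. The sum of 5 smooth muscle markers was 140 to 144 against 63.6 to 89.1, with 3 higher and the defining Myh11 dim on all 9. The 6 fibroblast markers summed, without Col1a1, came to 143 to 174 against 150 to 179. The sum of 8 neural markers, without Stmn2, was 1.67 to 1.71 against 0.647 to 0.7: 6 of the 9 were called higher, Nefl among them, and Elavl3 was dim on all 9 arrays. Leukocyte markers summed to 1.26 to 1.73 against 0.731 to 1.27, with the pan-leukocyte gene Ptprc well above background on 1 of 3 siRNA and 6 of 6 plasmid arrays. Endothelial markers summed to 0.952 to 1.32 against 0.99 to 1.35 and epithelial markers to 0.0394 to 0.0599 against 0.0179 to 0.0312, with Epcam and Cdh1 dim on all 9. Adipocyte markers summed to 0.352 to 0.368 against 0.215 to 0.245, and bone and cartilage markers to 0.121 to 0.187 against 0.207 to 0.342. The part of these markers in the results was not tested.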

How the data were processed

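RNA of 12 C2C12 samples (TRIzol, DNase I, ribosomal RNA removal, Cy3 label, per the labels' protocols) was hybridised to 1-colour Agilent mouse arrays, and 9 arrays were used. The deposited files hold each spot's intensity and background flags from Feature Extraction 11.0.1.1, with probe positions on build mm9, per the file headers. Log2 of the processed signal minus each array's 75th percentile was taken, without control spots and outlier flags, and spots of a probe were averaged. Probes well above background on all arrays of at least 1 of the 3 groups were kept (29097 of 39429). A gene was its brightest kept probe, which gave 24163 genes, 24116 of them with a test. Symbols came from accessions matched to RefSeq (27234 probes matched, 12195 kept the file's name). The precision is limited by the number of arrays.

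Repeat scans were averaged to 6 samples. limma 3.58.1 in R 4.3.3 fitted 3 group means (lmFit, eBayes) with Benjamini-Hochberg adjustment over all genes, and the contrast was siRNA minus the mean of the plasmid groups. The procedure was run on simulated data with known shifts, whose noise had the spread seen within these groups. That run cannot show whether this spread is technical. The deposited processed table of the series, intensities whose column medians were 276.3 to 277, served as an alternative. A fold given as at least N sets the bright group against, on each array, the dimmest signal still well above background or the probe's own, whichever was higher.

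Named genes were those called, with the arms not overlapping: the 12 highest and 12 lowest well above background on all 9 arrays, the 6 largest bounds each way, up to 4 members of each list by p, the members that define a list, and Meg3. Predicted and Rik genes (298) were left out, and a few other genes are not reported here. Other list members and the promoters shown were chosen after their values were seen. The comparison, its members and the lists were chosen with earlier results of these data known.

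Alternatives were median scaling, quantile normalisation, normexp correction (on the median spot signal, since no mean signal column was used here), the deposited table, filters, the median over probes, first scans, all arrays as samples, other fits, and leaving out samples. Local background subtraction with an offset of 50 was chosen after seeing the data. Same-numbered arrays of different groups did not deviate together (correlations -0.121 to 0.009). Since the spread within a group could be wholly technical, this cannot show whether the replicate numbers paired the samples. The fit used no pairing.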

Additional observations from a re-analysis of the deposited data

Results flagged for a closer look

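The 2 plasmid groups differed from each other on 30 of the 144 genes picked by the naming rule above. This was limma's test of that difference, with adjustment over all genes. The distance of the siRNA arrays from one plasmid group therefore differs from that to the other on these genes, whatever its cause. Differences are given as samples labelled pcDNA3.1-MEG3 minus pcDNA3.1, on the log2 scale. Over all genes tested, 2533 (10.5%) differed between the plasmid groups. The naming rule took list members by small p in limma's main contrast, which shares its spread estimate with this test. The count of 30 among 144 therefore cannot be compared with that share. Other list members described in the text were not counted here. Among them Irf7, Tgfb1 and Elmo1 also had plasmid groups that stood apart.

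Of these 30 genes, the 8 lower in the samples labelled pcDNA3.1-MEG3 were Meg3, the collagen VI chains Col6a3 (-0.59) and Col6a1 (-0.4), Nkd2 (-0.56), Dysf (-0.46), Megf10 (-0.39), Bmp1 (-0.38) and Actg2 (-0.34). Meg3 went against the label of these samples. It was well above background on none of their arrays, so its difference is a bound, at least 18.9-fold lower on the brightest probe. The fitted value of -4.74 has no exact size.

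Among the 30, the muscle genes higher in these samples were Des (2.17), Tnni1 (1.37), Tnnc1 (0.86), Pgam2 (0.66), Myog (0.57), Acta1 (0.5) and Chrnb1 (0.33). For all of these except Des the siRNA samples stood above both plasmid groups. The interferon and antigen presentation genes among the 30 that were higher in these samples were Tap1 (1.76), Bst2 (0.95) and Psmb8 (0.89). The siRNA samples stood below both groups on each. The ribosomal protein genes were Rps19 (1.03), Rpl19 (0.94) and Rpl28 (0.63), and the IGF binding proteins were Igfbp2 (1.11) and Igfbp3 (0.58). The others were U2af2 (1.94), Dyrk4 (0.58), Spc24 (0.58), Bax (0.5), Serpine2 (0.48), Grem1 (0.47) and Hmox1 (0.37).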

How the results depend on the processing

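For siRNA against both plasmid groups, 9412 genes were called. A call that also needed a change of at least 1 on the log2 scale left 2440, normexp 0, all 9 arrays as samples 16127, each plasmid group as 1 sample 899, the negative control in the fit 4615, the plasmid samples pooled as 1 arm 5365, and leaving out single samples 5916 to 10047 (6024 without pcDNA3.1-MEG3 replicates 1 and 3). Normexp fitted a background mean between -1010 and -796 on 3 arrays and between 7.31 and 11.2 on the other 6, and 11918 genes had an unadjusted p under 0.05 in limma's fit of the reported values. Leaving out either siRNA sample turned the split to more lower than higher genes (4163 and 5763, or 4435 and 5612). Against pcDNA3.1 (7633) the counts were 2150, 0, 15378 and, with the negative control, 2871, and 2864 to 8804 with samples left out (3118 to 8637 for replicate 2 of each group, 2864 without pcDNA3.1 replicates 1 and 3 and 4553 without pcDNA3.1-MEG3 replicates 1 and 3). Against the samples labelled pcDNA3.1-MEG3 (9118) they were 2892, 0, 14749 and 4239, and 4476 to 10263 (4712 without pcDNA3.1-MEG3 replicates 1 and 3). Of the 144 genes named, the 30 that differed between plasmid groups became 14 under median scaling, 0 under normexp, 13 without the filter, 89 with 9 arrays, 0 with the negative control, and 0 to 28 with samples left out. Whether the replicate numbers paired the samples could not be told. With the number as a replicate block the counts were 7003 against both groups, 4683 against pcDNA3.1, 6916 against the samples labelled pcDNA3.1-MEG3, and 6 between the plasmid groups. Other settings gave 8101 to 10038 calls against both groups, and quantile normalisation gave 5658 higher and 3485 lower.

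Under normexp the direction turned for Pdzrn4 (0.086), Cmpk2 (0.29), Tas2r119 (0.26), Tap1 (0.067), Myh6 (0.53), Myl2 (0.97), Chrne (1.03) and Meg3 (0.52). Tnni3 turned with 9 arrays (-0.070) and without siRNA replicate 2 (-0.43, against up to 0.14 without another group's replicate 2). Mylpf turned with 9 arrays (-0.13), without pcDNA3.1 replicate 2 (-0.05), without pcDNA3.1-MEG3 replicates 1 and 3 (-0.0027) and without siRNA replicate 2 (-0.40, against up to 0.065). Chrng turned without siRNA replicate 2 (-0.17, against up to 0.20). Myl2 turned under median scaling (0.0026), quantile normalisation (0.29), background subtraction (0.13) and the deposited table (0.25), and without siRNA replicates 1 and 3 (0.24). The cause was not tested. Background subtraction with an offset shrank the changes of dim genes, among them Vgll2 (4.78), Myh1 (3.29), Cthrc1 (4.05) and Meg3 (-0.77). Of the 144 genes, 106 kept their side of the threshold with each plasmid group as 1 sample and 38 lost the call.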
